A study of Homo sapiens with 18 samples.

Results

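LIPG, AIF1L, PTGFRN and DOK4 were picked as genes whose response to WDR5 knockdown was not the same in the 3 metastatic breast cancer lines studied. They are 4 of the 58815 genes in the counts table, and all 4 were among the 12095 genes that were expressed highly enough to be tested. They were selected on measured values, as those among the 2 genes with the smallest p-values for a difference in response within each pair of lines, leaving aside ARMCX2 and NYNRIN, which ranked first for a pair each. Their responses line by line, and the differences between these, are therefore given as a description without a test. None of the 4 passed the adjusted threshold of 0.05 for such a difference in edgeR's quasi-likelihood test, which 1 gene passed for BrM3 against LM2, 0 for BoM against LM2 and 1 for BoM against BrM3. For BoM against LM2, 627 genes had an unadjusted p under 0.05 in that test, and DESeq2 called 3 genes with a higher and 37 with a lower response in BoM. DESeq2 called 4 higher and 14 lower for BrM3 against LM2, and 0 and 4 for BoM against BrM3. With a block on the replicate number edgeR called 1 higher and 7 lower for BrM3 against LM2, and 0 and 6 for BoM against LM2. With the filterByExpr filter it called 0, 0 and 1 genes for the 3 pairs. With no filter edgeR called 2 higher and 14 lower for BrM3 against LM2, 5 and 22 for BoM against LM2, and 2 and 7 for BoM against BrM3. Whether the 4 genes were among those called in these other settings is not reported here.

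The cells were LM2, BrM3 and BoM, derivatives of the triple-negative breast cancer line MDA-MB-231 that grow in lung, brain and bone, respectively. Each line carried a DOX-inducible pINDUCER10 vector with either a control hairpin (shCtrl) or a hairpin against WDR5 (shWDR5), and all 6 groups, controls included, received DOX at 1 μg/mL for 3 days. Each group held 3 libraries, which came from different passages of the same transduced cells, so 18 libraries were compared. The effect of shWDR5 rests on a single hairpin sequence in this experiment. A library's line was taken from its title and cell line label. For the brain line the titles say BrM and the cell line label says BrM2, the subline from which the paper derived BrM3. The paper's name BrM3 is used here, and its conflict with that label was not resolved. Levels are given as CPM, the read count of a gene relative to the total of its library after the libraries were scaled to each other, and in bulk RNA fewer expressing cells and less RNA per cell cannot be told apart.

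WDR5 has no enzymatic activity of its own and holds together several chromatin-modifying assemblies, among them the COMPASS-type histone methyltransferases. The 4 genes belong to unrelated families. LIPG encodes endothelial lipase, a secreted phospholipase that acts mainly on the phospholipids of high-density lipoprotein. AIF1L encodes an actin-binding protein with EF-hand motifs, a relative of AIF1. PTGFRN, also known as CD9P-1 or EWI-F, encodes an immunoglobulin superfamily membrane protein that partners with the tetraspanins CD9 and CD81. DOK4 encodes a docking protein with pleckstrin homology and phosphotyrosine-binding domains that is phosphorylated downstream of receptor tyrosine kinases.

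In GENCODE release 44 on GRCh38, LIPG (ENSG00000101670) lies on the forward strand of chr18:49560699-49599185, AIF1L (ENSG00000126878) on the forward strand of chr9:131096476-131123152, PTGFRN (ENSG00000134247) on the forward strand of chr1:116909916-116990353, and DOK4 (ENSG00000125170) on the reverse strand of chr16:57471922-57487327. The promoters of 3 of the 4 genes matched in RefSeq (GRCh38.p14) and are shown because the genes answered the same hairpin in different ways. Each runs from 250 bases before to 50 bases after the start that RefSeq gives the gene, 5′ to 3′ on the gene's own strand, with matches to the searched motifs in capitals. They are LIPG at chr18:49561807-49562106, forward strand, PTGFRN at chr1:116909666-116909965, forward strand, and DOK4 at chr16:57487273-57487572, reverse strand. The RefSeq and GENCODE starts are the same for PTGFRN and only a few bases apart for DOK4. For LIPG they differ more, and its window lies inside the GENCODE span of that gene. The sequence of AIF1L is not shown.
LIPG: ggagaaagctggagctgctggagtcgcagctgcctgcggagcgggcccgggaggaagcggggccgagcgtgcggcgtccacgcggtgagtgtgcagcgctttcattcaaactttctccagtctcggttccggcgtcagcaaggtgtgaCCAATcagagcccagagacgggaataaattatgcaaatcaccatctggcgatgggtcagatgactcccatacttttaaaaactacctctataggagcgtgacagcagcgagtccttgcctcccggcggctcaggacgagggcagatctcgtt
PTGFRN: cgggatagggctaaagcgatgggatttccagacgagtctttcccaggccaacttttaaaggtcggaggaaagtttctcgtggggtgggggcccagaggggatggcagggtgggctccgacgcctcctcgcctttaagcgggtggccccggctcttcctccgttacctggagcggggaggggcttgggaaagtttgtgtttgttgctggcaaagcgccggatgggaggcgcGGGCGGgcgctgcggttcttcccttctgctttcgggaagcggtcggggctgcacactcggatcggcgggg
DOK4: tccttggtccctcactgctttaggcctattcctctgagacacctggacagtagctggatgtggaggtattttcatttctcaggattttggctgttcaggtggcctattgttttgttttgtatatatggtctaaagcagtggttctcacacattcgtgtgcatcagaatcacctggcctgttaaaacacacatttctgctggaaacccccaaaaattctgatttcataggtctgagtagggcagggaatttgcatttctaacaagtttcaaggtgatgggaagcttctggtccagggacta

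The 3 promoters differed in base composition. The LIPG promoter held 58.7% G and C, the same as the median of 35116 promoters, with 23 CpG dinucleotides against a median of 14. The PTGFRN promoter was richer, at 64% and 25 CpG. The DOK4 promoter held 44.3% and a single CpG, and 3.96% of all promoters had fewer. Of 4 motifs searched on both strands, CACGTG (the E-box, present in 7.26% of all promoters) and TATAA (the TATA box, 20.4%) had no match in any of the 3. CCAAT (the CCAAT box, 34.6% of all promoters) matched once in LIPG, at position -102 from the start, and GGGCGG (the GC box, 45%) matched once in PTGFRN, at position -20. DOK4 held none of the 4 motifs. No match overlaps another, and which start site these cells used was not measured.

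Total counts were between 17485841 and 119667013 per library and spread most widely in LM2 shCtrl. Libraries of the same group differed by more than counting noise, with a chi-square per gene of 5.15 to 90.8 over 18 pairs. The target itself was lowered in every line. WDR5 stood at 125 ± 11.1 CPM (SD, n = 3) in LM2 shCtrl and 23.1 ± 2.25 in LM2 shWDR5, at 86.1 ± 6.96 and 21.9 ± 1.42 in the 2 BrM3 groups, and at 89.5 ± 1.71 and 19 ± 4.39 in those of BoM. The remaining share was 18.5%, 25.4% and 21.3% of shCtrl (adjusted p = 1.8e-08, 4.2e-07 and 6.2e-08, edgeR's quasi-likelihood test), in comparisons that called 4.77%, 7.92% and 10.7% of tested genes lower. The log2 response of WDR5 was 0.46 (SE 0.189) less negative in BrM3 than in LM2 (unadjusted p = 0.027, adjusted p = 1, edgeR). It was 0.20 (SE 0.19) less negative in BoM than in LM2 (unadjusted p = 0.32, edgeR), and whether these gaps bear on the 4 genes was not tested. Of the cell type markers, the 6 mesenchymal and basal genes summed to between 3930 and 6630 CPM in every library and the 6 luminal genes to between 10.8 and 20.1 CPM. The 5 leukocyte genes summed to between 1.21 and 4.73 CPM, with TYROBP at 0 throughout, and the 4 endothelial genes to between 2.28 and 7.05 CPM.

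LIPG was lower with shWDR5 in BrM3 and BoM, whereas in LM2 the hairpins overlapped. In LM2 its CPM were 4.54, 6.19 and 6.01 in shCtrl and 5.09, 6.36 and 8.44 in shWDR5. In BrM3 they were 1.94, 2.24 and 1.66 against 0.456, 0.632 and 0.752, with no overlap. BoM lay between these, with 4.54, 6.56 and 4.74 in shCtrl and 2.76, 2.6 and 3.31 in shWDR5, again without overlap. The low end rested on few reads, since the 3 BrM3 shWDR5 libraries held 8 to 39 reads on LIPG.

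**Figure D1:**
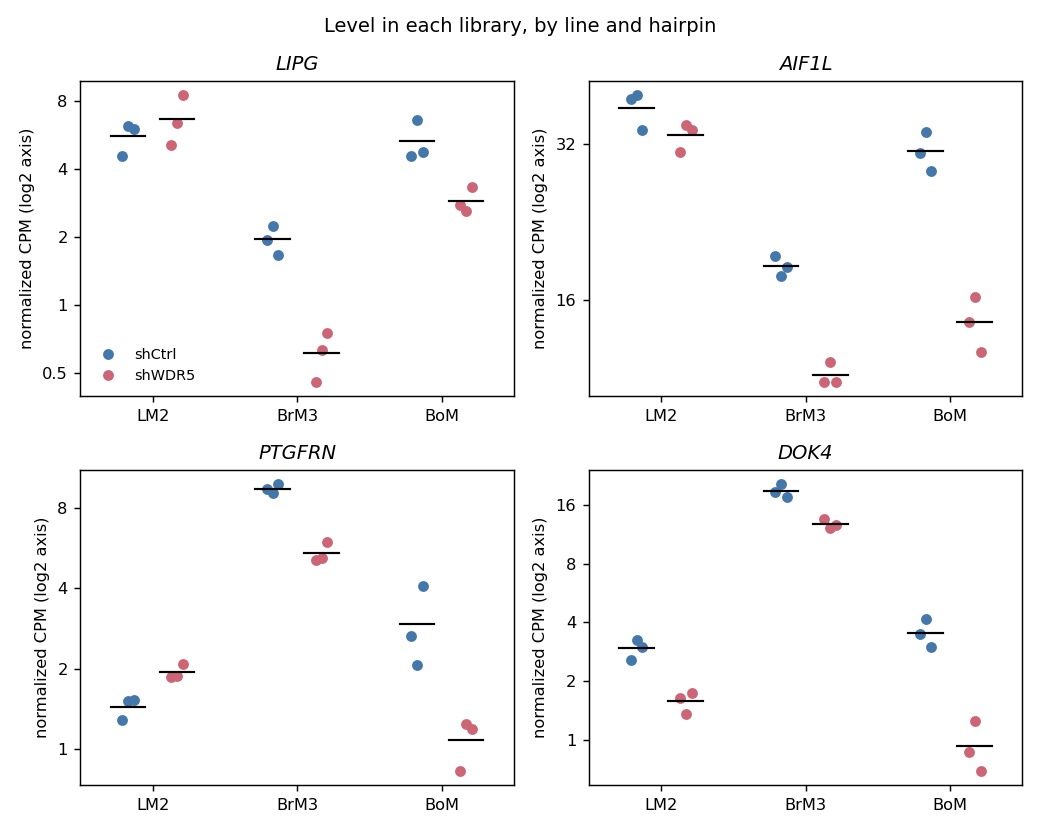
Normalized CPM (log2 axis) of the 4 genes in each of the 18 libraries, by line, with shCtrl in blue, shWDR5 in red and the mean of 3 libraries as a black bar. The red points of LIPG and AIF1L overlap the blue ones in LM2, those of PTGFRN lie above them in LM2, and in every other pairing all red points lie below.

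The log2 responses of LIPG in LM2, BrM3 and BoM were 0.22 (SE 0.198), -1.58 (SE 0.258) and -0.88 (SE 0.212), so that shWDR5 cells held 119%, 31.6% and 54.8% of the shCtrl mean. The LM2 value leaned on a single library, as it was 0.03 without LM2 shWDR5 replicate 3 and 0.38 without LM2 shWDR5 replicate 1. LIPG was selected on BrM3 against LM2, where its responses differed by -1.80 (SE 0.326). It ranked 2 of 12095 genes by p, after ARMCX2 at 0.78 (SE 0.116) and before LAMB1 at -0.57 (SE 0.103). For BoM against LM2 its difference of -1.10 (SE 0.29) ranked 66, and for BoM against BrM3 its difference of 0.71 (SE 0.335) ranked 347.

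AIF1L, with the highest level per exon length of the 4 genes in LM2 at 7.09 CPM per kb in shCtrl, also had its smallest response there. Its CPM in LM2 were 39, 39.7 and 34 in shCtrl and 30.9, 34.8 and 34 in shWDR5, which overlapped. In BrM3 they were 19.4, 17.8 and 18.5 against 11.1, 12.1 and 11.1, and the groups were apart. In BoM the gap was wider, at 30.7, 33.8 and 28.4 against 14.5, 16.2 and 12.7. The replicates of AIF1L were close to each other throughout, and no library had fewer than 194 reads on it.

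The log2 responses of AIF1L in LM2, BrM3 and BoM were -0.18 (SE 0.103), -0.70 (SE 0.107) and -1.10 (SE 0.107), which left 88.4%, 61.5% and 46.7% of the shCtrl mean. It was selected on BoM against LM2, where its difference of -0.92 (SE 0.148) ranked 1. It ranked 41 for BrM3 against LM2, with -0.52 (SE 0.149), and 128 for BoM against BrM3, with -0.40 (SE 0.15).

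PTGFRN had opposite signs in different lines. In LM2 it stood at 1.29, 1.51 and 1.53 CPM in shCtrl and 1.86, 1.88 and 2.08 in shWDR5, so each shWDR5 library was above each shCtrl library. In BrM3 it stood at 9.38, 9.1 and 9.83 against 5.13, 5.19 and 5.98, with every shWDR5 library below. In BoM the values were 2.66, 2.06 and 4.08 against 0.832, 1.24 and 1.19, also with every shWDR5 library below, and the shCtrl libraries spread over a wider range than in the other lines. Counts were low outside BrM3, at 34 to 188 reads in LM2 and 31 to 105 in BoM.

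The log2 responses of PTGFRN in LM2, BrM3 and BoM were 0.40 (SE 0.204), -0.79 (SE 0.182) and -1.41 (SE 0.221), or 135%, 57.6% and 37.1% of shCtrl. It was selected on BoM against LM2, where its difference of -1.81 (SE 0.301) ranked 2, after AIF1L and before DNMT3A at -0.94 (SE 0.161). Its difference for BrM3 against LM2 was -1.19 (SE 0.273) and ranked 17. Its difference for BoM against BrM3 was -0.62 (SE 0.286) and ranked 301, and was -0.35 without BoM shCtrl replicate 3, its highest library in that group.

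DOK4 was lower with shWDR5 in all 3 lines, and the gap was smallest on the log2 scale where its level was highest. In LM2 its CPM were 2.57, 3.26 and 2.99 in shCtrl and 1.64, 1.35 and 1.74 in shWDR5. In BrM3 they were 18.7, 20.5 and 17.6 against 13.6, 12.2 and 12.6. In BoM they were 3.47, 4.18 and 2.97 against 0.859, 1.24 and 0.693, with 18 to 32 reads per shWDR5 library. The groups were apart in each line.

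The log2 responses of DOK4 in LM2, BrM3 and BoM were -0.94 (SE 0.175), -0.57 (SE 0.15) and -1.95 (SE 0.193), which left 53.7%, 67.6% and 26.3% of shCtrl. It was selected on BoM against BrM3, where its difference of -1.38 (SE 0.245) ranked 2, after NYNRIN at -1.69 (SE 0.242) and before DNMT3A at -0.78 (SE 0.16). It ranked 62 for BoM against LM2, with -1.01 (SE 0.262), and 827 for BrM3 against LM2, with 0.37 (SE 0.229), a difference of the opposite sign to those of the other three. The annotated end of DOK4 overlaps POLR2C, an RNA polymerase II subunit gene on the opposite strand with up to 9919 reads in a library. The overlap runs from 57471922 to 57472009 on chromosome 16, and DOK4 has 4786 exon bases in all. The strand setting of the counting is not given in the sources used here, so reads of DOK4 in that overlap are uncertain. POLR2C itself had an average log2 response of 0.05 (adjusted p = 0.59, edgeR).

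**Figure D2:**
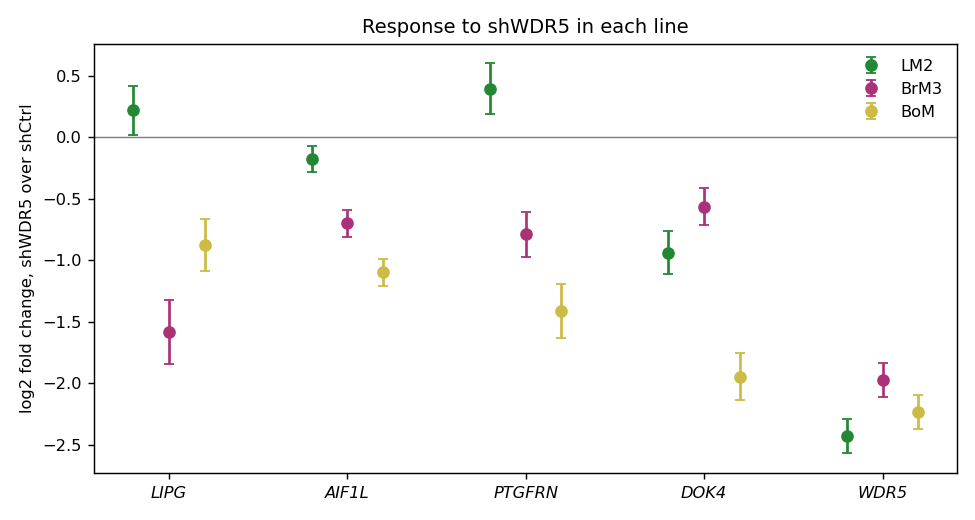
Log2 fold change of shWDR5 over shCtrl, with its standard error, for the 4 genes and for WDR5 in LM2 (green), BrM3 (purple) and BoM (yellow). LIPG was lowest in BrM3 at -1.58, whereas AIF1L, PTGFRN and DOK4 were lowest in BoM, and WDR5 itself was between -2.43 and -1.97 in the 3 lines.

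Groups without overlap were common over all tested genes. In LM2, 14.6% of them had all 3 shWDR5 libraries below all 3 shCtrl libraries and 10.7% had all 3 above. BrM3 had such shares of 19.7% and 15.8%, and BoM of 17.3% and 12.9%. The pattern of LIPG and AIF1L (overlap in LM2, lower in BrM3 and BoM) was met by 602 genes, or 4.98%. That of DOK4 (lower in all lines) was met by 860 genes, or 7.11%, and that of PTGFRN (higher in LM2, lower in the others) by 5 genes, or 0.0413%. As the responses chose the members, these counts describe the data and carry no test.

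The distance between the lines was not the same with the 2 hairpins. On the log2 scale such a change comes from the differences in response that chose the genes, so it carries no test. For LIPG, the ratio of the highest to the lowest line mean was 2.87 in shCtrl and 10.8 in shWDR5, with the order LM2, BoM, BrM3 in both. For AIF1L it was 2.02 and 2.91, in the same order. For DOK4 it was 6.43 and 13.7, and for PTGFRN it narrowed from 6.54 to 4.99. The ratios of 10.8 and 13.7 divide by groups with few reads. These are LIPG in BrM3 shWDR5 (8 to 39 reads per library) and DOK4 in BoM shWDR5 (18 to 32). PTGFRN and DOK4 were highest in BrM3 with either hairpin, whereas LM2 was below BoM in shCtrl and above it in shWDR5. The line means of DOK4 in LM2 and BoM shCtrl were within their spread (2.94 ± 0.346 and 3.54 ± 0.608 CPM, SD, n = 3). Those of LIPG in LM2 and BoM shCtrl were too, at 5.58 ± 0.908 and 5.28 ± 1.12 CPM.

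The average of the 3 responses is a contrast that the selection did not use, and it was tested for each gene. In this balanced design it is close to independent of the differences between lines, although a choice by small p-values also favours genes with a small estimated spread, which may make the p-values below somewhat too small. All 4 genes fell, against a background of 19.9% of tested genes called lower and 15.6% called higher. DOK4 fell by 1.15 on the log2 scale (SE 0.1, adjusted p = 2.9e-07, edgeR's quasi-likelihood test), and 0.785% of tested genes had a larger fall. LIPG fell by 0.75 (SE 0.13, adjusted p = 0.00028, edgeR), AIF1L by 0.66 (SE 0.061, adjusted p = 5.3e-07, edgeR) and PTGFRN by 0.60 (SE 0.117, adjusted p = 0.00076, edgeR). Larger falls were seen in 3.17%, 4.47% and 5.46% of tested genes. These averages hide the spread between lines, and for LIPG and PTGFRN the LM2 value had the opposite sign.

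The lines differed in the level of the 4 genes when both hairpins were averaged, a comparison that likewise did not choose them. This average is not the level in shCtrl, since the response to shWDR5 in each line enters it too. Differences in the averaged level were the rule in these cells, with 63.7% of tested genes called for BrM3 against LM2, 67.1% for BoM against LM2 and 58.3% for the remaining pair. DOK4 was 7.25-fold higher in BrM3 than in LM2 (adjusted p = 1.1e-12, edgeR), and PTGFRN was 4.27-fold higher (adjusted p = 6.2e-10, edgeR). LIPG and AIF1L went the other way, 5.4-fold lower (adjusted p = 7.5e-10, edgeR) and 2.43-fold lower (adjusted p = 1.3e-10, edgeR) in BrM3 than in LM2. Genes were kept for testing by their highest library. PTGFRN and DOK4 had no LM2 library above that filter, and LIPG had no BrM3 library above it. With no filter the log2 differences of DOK4, PTGFRN and LIPG were 2.9, 2.14 and -2.39, against 2.86, 2.1 and -2.43 with it.

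Averaged over both hairpins, the level in BoM was nearer to that in LM2 than to that in BrM3 for LIPG, PTGFRN and DOK4. For AIF1L that average was nearer to BrM3. In shCtrl alone AIF1L in BoM was nearer to LM2, with mean CPM of 31 in BoM, 37.6 in LM2 and 18.6 in BrM3. PTGFRN was higher in BoM than in LM2 in shCtrl (2.94 and 1.44 CPM) and lower in shWDR5 (1.09 and 1.94 CPM). In the average over both hairpins LIPG was 1.55-fold lower in BoM than in LM2 (adjusted p = 0.00095, edgeR) and AIF1L was 1.67-fold lower (adjusted p = 1.3e-07, edgeR). In shCtrl alone LIPG stood at 5.58 ± 0.908 CPM in LM2 and 5.28 ± 1.12 CPM in BoM (SD, n = 3). The log2 difference of PTGFRN was 0.06, with a 95% interval of -0.257 to 0.384 (adjusted p = 0.73, edgeR), and took the opposite sign without BoM shCtrl replicate 3, at -0.07. That of DOK4 was -0.23, with an interval of -0.51 to 0.0432 (adjusted p = 0.13, edgeR), and passed the threshold without BoM shWDR5 replicate 2, at -0.35 (adjusted p = 0.025, edgeR). Against BrM3, BoM had 3.48-fold more LIPG (adjusted p = 1e-07, edgeR) and 1.46-fold more AIF1L (adjusted p = 1.2e-05, edgeR). It had 4.09-fold less PTGFRN (adjusted p = 3.2e-09, edgeR) and 8.53-fold less DOK4 (adjusted p = 2.2e-12, edgeR).

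**Figure D3:**
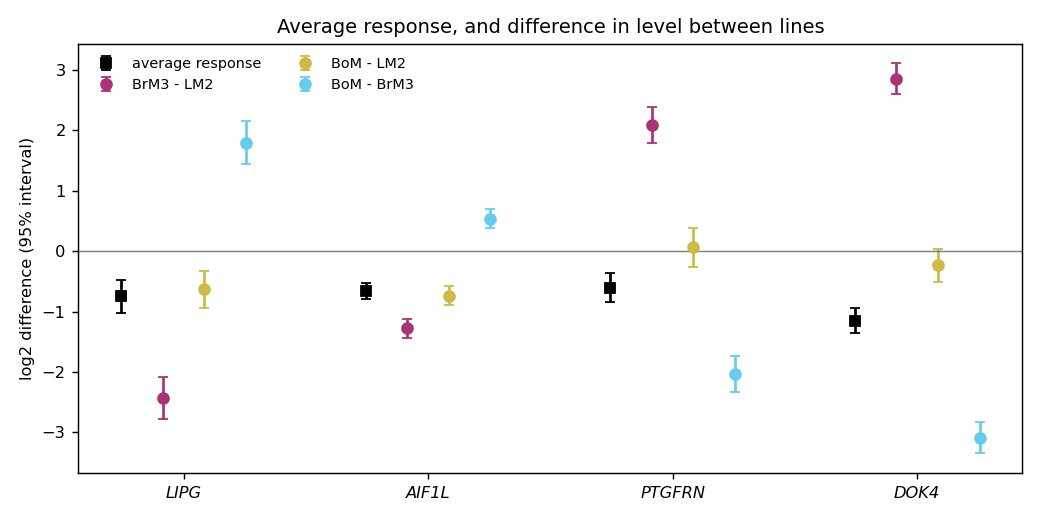
Log2 difference with its 95% interval for the average response to shWDR5 (black squares) and for the level between each pair of lines, averaged over both hairpins (circles). All 4 average responses lie below 0, from -1.15 for DOK4 to -0.60 for PTGFRN, and the intervals that reach 0 are those of PTGFRN and DOK4 for BoM against LM2.

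Across the 18 libraries, LIPG and AIF1L varied together, and so did PTGFRN and DOK4. The Pearson correlation of log2 CPM was 0.873 for the first pair and 0.923 for the second, and it was between -0.639 and -0.332 for the 4 pairs taken across them. These values describe libraries that share lines and passages, and they carry no test. The genes most like LIPG were HES2 (0.971), PRKCD (0.968) and GPX3 (0.967), which encode a bHLH repressor of the Hes family, protein kinase C delta and a secreted glutathione peroxidase. HES2 had mean CPM of 5.01 and 5.13 in LM2 shCtrl and shWDR5, 1.18 and 0.544 in the BrM3 groups, and 5.51 and 3.04 in those of BoM. The genes most like AIF1L were CALB2 (0.967), TIMP4 (0.964) and HLA-F (0.963), which encode the calcium-binding protein calretinin, a metalloproteinase inhibitor and a nonclassical MHC class I molecule. For PTGFRN they were LINC00665 (0.954), the cystatin gene CST7 (0.939) and FKBP5 (0.928), a co-chaperone gene. For DOK4 they were C6orf132 (0.981), the lysyl oxidase gene LOXL4 (0.975) and S1PR5 (0.972), which encodes a sphingosine 1-phosphate receptor. C6orf132 had mean CPM of 13.8 and 9.2 in LM2 shCtrl and shWDR5, 45.5 and 38.2 in the BrM3 groups, and 15.2 and 8.47 in those of BoM. The median correlation of each of the 4 genes with all tested genes was between -0.0065 and 0.0069.

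The closest relatives were expressed unevenly. LPL, the lipoprotein lipase gene, fell by 0.47 on average (SE 0.099, adjusted p = 0.0014, edgeR). Its log2 responses in LM2, BrM3 and BoM were -0.06, -0.48 and -0.87, and the BoM response passed the test (adjusted p = 0.0027, edgeR). IGSF3 and IGSF8, which like PTGFRN encode immunoglobulin superfamily proteins of the EWI group, fell by 0.88 (SE 0.085, adjusted p = 8.6e-07, edgeR) and 0.55 (SE 0.18, adjusted p = 0.023, edgeR). IGSF3 had log2 responses of -0.36 in LM2 (adjusted p = 0.14, edgeR), -1.06 in BrM3 (adjusted p = 0.00033, edgeR) and -1.23 in BoM (adjusted p = 4.4e-05, edgeR). Neither LPL nor IGSF3 passed the adjusted threshold for a difference in response between lines. LIPC, AIF1, DOK5 and DOK6 were too low to be tested, with at most 16, 2, 1 and 136 reads in a library.

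Adjacent genes gave no common picture. The nearest tested protein-coding genes beside LIPG were RPL17, a ribosomal protein gene 68.2 kb away, which fell by 1.17 on average (SE 0.18, adjusted p = 0.00013, edgeR) and whose reads may be shared with near-identical copies, and ACAA2, 183 kb away, at -0.05 (adjusted p = 0.45, edgeR). Beside AIF1L, NUP214 began 2.42 kb away and had an average log2 response of -0.12 (SE 0.062, adjusted p = 0.13, edgeR), and FIBCD1, 157 kb away, had -0.45 (SE 0.21, adjusted p = 0.11, edgeR). PTGFRN lies between its relative IGSF3, 242 kb away, and TTF2, 70 kb away, at -0.08 (adjusted p = 0.29, edgeR). On the other side of DOK4 from POLR2C, CCDC102A, 24.9 kb away, fell by 0.71 (SE 0.13, adjusted p = 4e-04, edgeR).

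Other genes of each member's functional surroundings were counted over the average response, where 19.9% of tested genes were lower, 15.6% were higher and the median log2 response was 0.003. Of 32 genes of lipases, lipoprotein handling and their cofactors, 23 were tested, 10 fell and 0 rose, with a median of -0.13. At an unadjusted p under 0.05 in edgeR's quasi-likelihood test 2 were higher, and 1 rose in DESeq2 and under the other scaling and filters tried. They included PCSK6, a proprotein convertase, at -0.64 (SE 0.1, adjusted p = 0.00013, edgeR), the phospholipid transfer protein gene PLTP at -0.61 (SE 0.12, adjusted p = 0.001, edgeR), the syndecan gene SDC1 at -0.48 (SE 0.098, adjusted p = 0.0011, edgeR) and the lysosomal lipase gene LIPA at -0.32 (SE 0.057, adjusted p = 0.00037, edgeR). The others that fell were LPL, LIPE, ANGPTL4, SEL1L, SCARB1 and ABCA1.

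Actin-binding genes leaned the other way from AIF1L. Of 38, 33 were tested, 12 rose and 2 fell, with a median of 0.15. The tropomyosin genes TPM3 and TPM4 rose by 0.38 (SE 0.046, adjusted p = 8.3e-06, edgeR) and 0.27 (SE 0.044, adjusted p = 0.00018, edgeR), and the calponin gene CNN2 rose by 0.44 (SE 0.069, adjusted p = 0.00012, edgeR). CORO1A, a coronin gene best known in leukocytes, fell by 1.22 (SE 0.17, adjusted p = 3.8e-05, edgeR), and SYNPO also fell. The leukocyte marker CD14 fell by 1.13 (adjusted p = 0.0039, edgeR) from mean CPM of at most 2.8, while PTPRC, the pan-leukocyte gene, was at most 0.924 CPM in any group mean and TYROBP was at 0. The part of such cells in these values was not tested. TPM3 was higher in each line taken alone, with adjusted p = 0.0077, 0.0033 and 0.0068 (edgeR) in LM2, BrM3 and BoM, where 1.48%, 2.89% and 5.42% of tested genes were called higher.

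Tetraspanins and their partners were mixed, with 27 of 34 tested, 5 higher and 7 lower, and a median of -0.10. CD9 and CD81, the partners of PTGFRN named above, did not pass, at -0.025 (SE 0.054, adjusted p = 0.75, edgeR) and -0.14 (SE 0.096, adjusted p = 0.26, edgeR). Besides IGSF3 and IGSF8, TSPAN15 fell by 0.87 (SE 0.089, adjusted p = 1.5e-06, edgeR), a tetraspanin that guides the protease ADAM10, and it was lower in each line alone (highest adjusted p = 0.0035, edgeR). The integrin subunit gene ITGB4 fell by 0.74 (SE 0.16, adjusted p = 0.0015, edgeR), and CD63 rose by 0.27 (SE 0.057, adjusted p = 0.0015, edgeR). TSPAN13, TSPAN17 and TSPAN31 fell as well, and TSPAN3, TSPAN5, TSPAN12 and EZR rose.

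Docking and adaptor genes around DOK4 were mixed too, with 28 of 38 tested, 7 higher and 5 lower, and a median of 0.11. SRC, the tyrosine kinase gene, fell by 0.94 (SE 0.078, adjusted p = 1.9e-07, edgeR) and was lower in each line alone (highest adjusted p = 0.014, edgeR). FRS3 and DOK1, docking protein genes like DOK4, fell by 0.83 (SE 0.15, adjusted p = 0.00054, edgeR) and 0.56 (SE 0.089, adjusted p = 0.00013, edgeR). GRB2, an adaptor that binds phosphorylated docking proteins, rose by 0.21 (SE 0.042, adjusted p = 0.00089, edgeR).

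**Figure D4:**
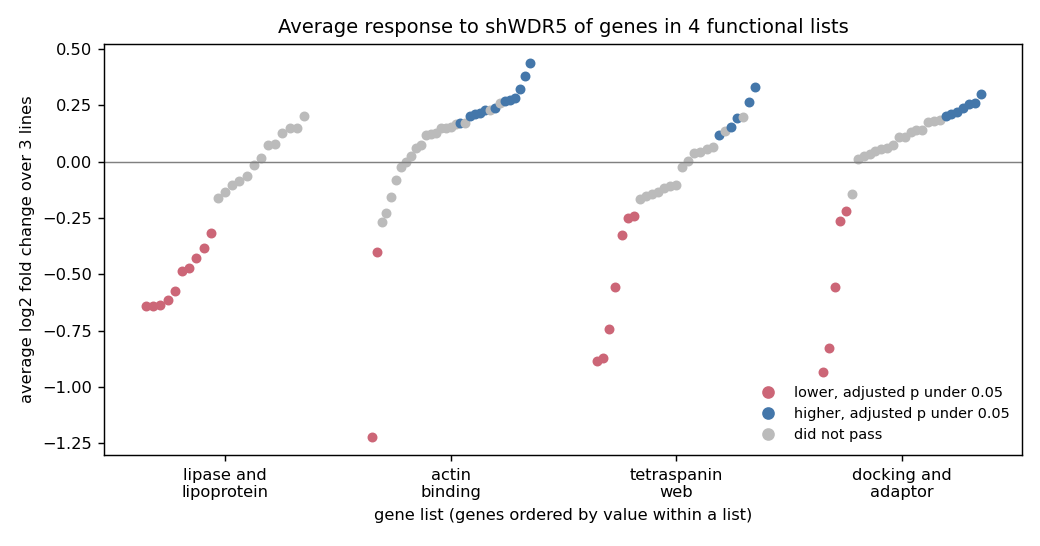
Average log2 fold change of shWDR5 over shCtrl for the tested genes of the 4 lists, ordered by value within each list and coloured by direction where the adjusted p was under 0.05. In the lipase and lipoprotein list 10 genes are lower and 0 higher (1 with the other scaling), in the actin list 12 are higher and 2 lower, and the other lists hold both directions.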

How the data were processed

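RNA of 18 libraries (3 lines, 2 hairpins, 3 libraries each) was prepared with a TruSeq stranded mRNA kit and sequenced in pairs. The authors aligned reads to hg38 with STAR 2.7.0 and deposited raw counts for 58815 genes, per the labels and the Methods. The deposited log2 fold changes and adjusted p-values, made by the authors with DESeq2, were not used. There were 0 unused per-sample columns. ERCC spike-ins were added, but the table held 0 such rows, so values are relative to each library's total. Source-name labels that contradict the titles were not used.

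Genes whose highest normalized count exceeded 145 were kept, the threshold at which the Jaccard index between replicates peaked (0.97), leaving 12095. LIPG passed through both LM2 groups and BoM shCtrl, PTGFRN and DOK4 through both BrM3 groups and BoM shCtrl, and AIF1L through every group. All 6 groups were fitted together in edgeR 4.0.16 (R 4.3.3) with TMM scaling and the quasi-likelihood test, with 12 residual degrees of freedom. P-values were adjusted by Benjamini-Hochberg over the tested genes and called under 0.05. Standard errors came from the F statistic. Replicates were separate passages of the same transduced cells. The fits were tested on simulated data.

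The members, gene lists and rules were chosen with earlier results of these data known. Named genes were the members, WDR5, the 3 genes most correlated with each member, nearest neighbours, paralogs, genes adjacent in the ranking, and up to 4 genes per list with the smallest p for the average response or called in all lines. Other called list genes, CD9, CD81, CD14, PTPRC and TYROBP were named after their values were seen. Alternatives were another scaling, DESeq2 1.42.0, other filters, a block on the replicate number and leaving out each library.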

Additional observations from a re-analysis of the deposited data

Results flagged for a closer look

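ARMCX2 and NYNRIN were noted because their response to shWDR5 differed between lines by a test of the difference itself. The log2 response of ARMCX2 was 0.78 higher in BrM3 than in LM2, and the log2 response of NYNRIN differed by -1.69 between BoM and BrM3. Their calls were not robust, since in edgeR 0 genes passed for BrM3 against LM2 with the filterByExpr filter and 0 for BoM against BrM3 with a replicate block. More genes passed for these pairs in DESeq2 and with no filter, and whether ARMCX2 and NYNRIN were among them is not reported here. PTGFRN was noted because all its shWDR5 libraries were above shCtrl in LM2 and below it in BrM3 and BoM. Its differences in response were -1.19 for BrM3 against LM2 and -1.81 for BoM against LM2, and were not tested here because the gene was chosen for them.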

How the results depend on the processing

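Of 356 tests of the 4 genes under the alternatives, 354 kept direction and side of the threshold. The exceptions were both for BoM against LM2. PTGFRN ran from -0.0745 without BoM shCtrl replicate 3 (adjusted p = 0.62, edgeR) to 0.167 without BoM shCtrl replicate 2, and DOK4 was -0.352 (adjusted p = 0.025, edgeR) without BoM shWDR5 replicate 2. The 552 values given without a test moved by less than 1 SD between replicates (the SDs of log2 CPM of the groups compared, added in quadrature), although some moved by more than their SE, among them PTGFRN in BoM, at -1.14 without BoM shCtrl replicate 3, and DOK4 in BoM, at -2.18 without BoM shWDR5 replicate 2. Counts of called genes moved more. With 1 library left out, the LM2 count ran from 384 to 990 (756 with all libraries), and it was over 1.5 times lower without shCtrl replicate 2 or 3 or shWDR5 replicate 1 or 2 of that line. The BrM3 count ran from 734 to 1568 (1307), and it was that much lower without shCtrl replicate 1, 2 or 3 or shWDR5 replicate 2 or 3 of that line. The BoM count ran from 1174, without BoM shCtrl replicate 2, to 2327 (1952). DESeq2 called 1142 genes in LM2. Among the lists, the average response gave 1 higher lipase and lipoprotein gene in place of 0 with relative log expression scaling, DESeq2 and both other filters, and 2 with the block. Lower actin-binding genes went from 2 to 4 (filterByExpr, block) or 5 (no filter), lower docking and adaptor genes from 5 to 9 (filterByExpr) and higher ones from 7 to 11 (block). The replicate numbers were not taken to pair the libraries, because 2 of 9 same-numbered pairs correlated at under 0.1 (range -0.177 to 0.729). The data nevertheless hint at pairing, as same-numbered pairs averaged 0.361 against -0.195 for others, 3 of 3 pairs in BoM were over 0.1 and 12 of 18 libraries correlated best with their own number. Each library was taken as its deviation from its group mean. This ties the mean for other pairs to that for same-numbered pairs, so the negative value is not a separate sign. With a replicate block LM2, BrM3 and BoM had 1433, 2290 and 3186 called genes, and the average responses of the 4 genes kept their calls. A block within lines cannot be used for differences in level between lines. The causes were not tested. Depth limits LIPG in BrM3 shWDR5 and DOK4 in BoM shWDR5 most, with 8 to 39 and 18 to 32 reads per library.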
